A study of Mus musculus with 6 samples.

Results

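Krt5, Krt14, Krt15, Krt17, Krt6a, Trp63 and Gabrp, genes of squamous epithelia of which several mark the basal layer, were described in the kidney of diabetic mice. These 7 of the 17684 genes in the table were chosen by their measured values in the comparison described here, so their levels and fold changes are given as a description, with no test. Kidney RNA of 3 db/db mice of the Db group, which received saline, and of 3 db/db mice of the Db + Ato10 group, which received atorvastatin at 10 mg/kg by gavage over 40 weeks, was sequenced, 1 library per mouse. All were labelled as strain C57 BLKS/L and were 50 weeks old. Mice of the db/db genotype carry a defective receptor for leptin and develop obesity with diabetes. Non-diabetic kidneys were not analysed here. Many treated mice of the study died before its end, so the sequenced animals are survivors. One field of the sample labels gives atorvastatin for all 6 animals, and the groups follow the other fields, which separate saline from atorvastatin. The question of the comparison is what long-term statin treatment does to the diabetic kidney. Each library held between 11381678 and 14667909 counts.

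Squamous (stratified) epithelia such as the epidermis grow from a basal cell layer that sits on a basement membrane. Basal cells carry filaments built from the pair of keratins 5 and 14, and the transcription factor p63, the product of Trp63, is needed to form and maintain this layer. The normal kidney tubule is lined by a simple epithelium with keratins 7, 8, 18 and 19, while basal cells with keratin 5 and p63 are known from the urothelium of the renal pelvis and bladder.

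Some features of the libraries bear on every value. The methods state that only male mice were enrolled. In Db replicate 1 the sum of 4 genes of the Y chromosome was 2 counts, against 1419 to 2116 in the other 5 libraries, which does not match that statement. Results are therefore also given without Db replicate 1. On the first principal component of log2 CPM (counts relative to the TMM-scaled library size), with 71.1% of the variance, Db + Ato10 replicate 3 lay at -18.8, next to Db replicate 2 at -26.9. Db + Ato10 replicates 1 and 2 lay at 107 and 46.1. A level of 3 counts in a library (0.198 to 0.26 CPM) was taken as the limit of detection. This limit and the exact intervals of ratios cover counting error only, not the spread between mice. In RNA of kidney tissue, more cells of a type and more RNA per cell cannot be told apart. The methods name the kidney and do not say whether the whole organ or a part was taken. Of the 7 genes, 5 had at least 10 counts in at least 3 libraries, as 13679 genes of the table did. Krt17 and Krt6a did not.

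Krt5 (NCBI Gene 110308) encodes the type II keratin of basal cells. It had 5, 1 and 5 counts in Db replicates 1 to 3, and 1127, 589 and 149 counts in Db + Ato10 replicates 1 to 3. Every Db + Ato10 library thus lay far above every Db library, and the lowest of them was still 29.1 times the highest Db library in CPM. Mean CPM was 0.296 ± 0.181 for Db and 41.9 ± 31.3 for Db + Ato10 (SD, n = 3 each), a log2 fold change of 7.08. As a ratio of pooled counts the difference was 145-fold, with an exact 95% counting interval of 80.8 to 291, and 174-fold without Db replicate 1. With only Db + Ato10 replicate 1 left out the ratio was 89. Krt6a (NCBI Gene 16687), a type II keratin that epidermis makes after wounding, had 0 counts in every Db library and 2, 0 and 1 counts in Db + Ato10 replicates 1 to 3. Both groups were at or under the limit of 3 counts, so no fold change is given for it and a difference was not detectable at this depth.

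Among the type I keratins, Krt14 (NCBI Gene 16664) is the filament partner of keratin 5. It had 1, 0 and 0 counts in the Db libraries and 473, 202 and 71 counts in the Db + Ato10 libraries. The groups did not overlap. The ratio was 638, with an exact 95% counting interval of 114 to 25228, and its width comes from the single Db count. Since that count was in Db replicate 1, the Db group without this library was at 0 and Krt14 was at least 134-fold higher in the Db + Ato10 group, taking 3 counts over the group as the limit. Leaving out Db + Ato10 replicate 1 lowered the ratio to 362 (64.5 to 14361).

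Krt15 (NCBI Gene 16665) is a type I keratin of basal cells and of the hair follicle bulge. It had 7, 0 and 1 counts in the Db libraries and 725, 459 and 94 counts in the Db + Ato10 libraries. Of the 8 Db counts, 7 were therefore in Db replicate 1. The means were 0.212 ± 0.301 CPM and 28.7 ± 20.3 CPM (SD, n = 3 each), with a log2 fold change of 6.98. The ratio of pooled counts was 137 (exact 95% interval 69.1 to 317), and 716 (128 to 28303) without Db replicate 1. With only Db + Ato10 replicate 1 left out the ratio was 91.7. Krt17 (NCBI Gene 16667), a type I keratin of skin appendages that also appears in wounded epidermis, had 0 counts in all 3 Db libraries and 25, 8 and 8 counts in the Db + Ato10 libraries. It was at least 11.4-fold higher in the Db + Ato10 group, against 3 counts over the Db group, with bounds of 7.49 when Db replicate 1 was left out and 7.12 when Db + Ato10 replicate 1 was.

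**Figure D1:**
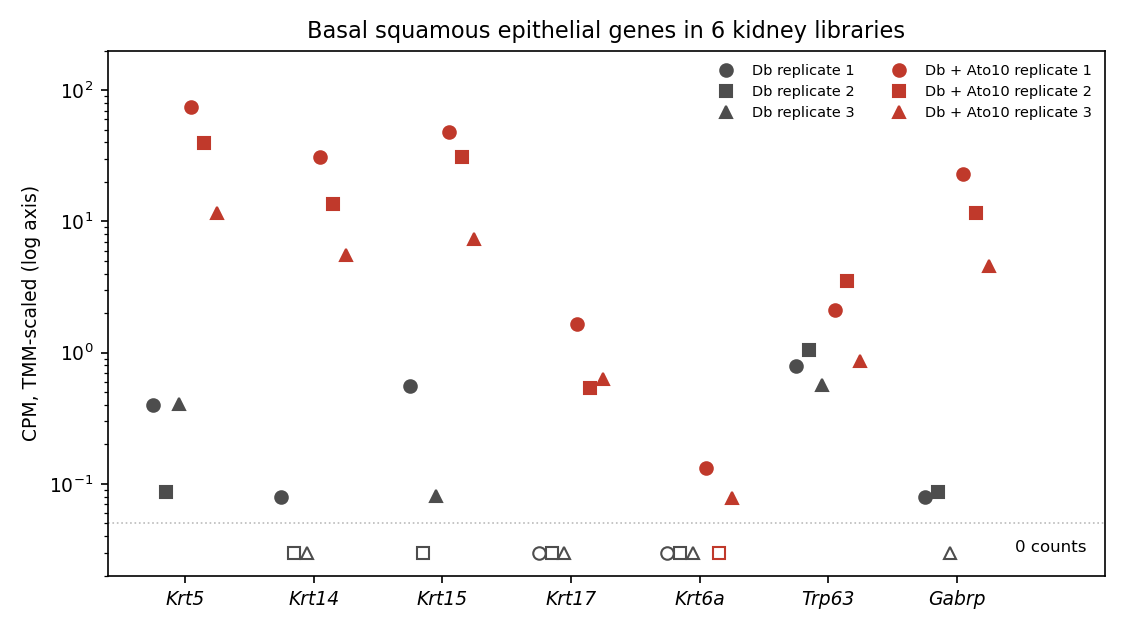
CPM (log axis) of the 7 genes in each of the 3 Db (grey) and 3 Db + Ato10 (red) libraries; open symbols below the dotted line mark 0 counts. For Krt5, Krt14, Krt15, Krt17 and Gabrp every red point lies above every grey point, while for Trp63 and Krt6a the groups overlap.

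Keratin filaments are built from equal parts of type I and type II chains, so the sums of the 2 types were set side by side on the FPKM scale, which accounts for transcript length. The type I sum (Krt14, Krt15 and Krt17) was 54.65, 29.54 and 8.80 FPKM in Db + Ato10 replicates 1 to 3. The type II sum (Krt5 and Krt6a) was 37.93, 19.74 and 5.62 FPKM. The ratio of type I to type II RNA was 1.44, 1.5 and 1.57, so it varied little while both sums varied widely between libraries. In the Db libraries the type I sum was 0.42, 0.00 and 0.05 FPKM and the type II sum 0.19, 0.04 and 0.20 FPKM, too low for a ratio. For the simple keratins, type I (Krt18, Krt19, Krt20 and Krt23) over type II (Krt7 and Krt8) was 0.128, 0.140 and 0.129 in the Db libraries and 0.583, 0.471 and 0.243 in the Db + Ato10 libraries. The simple type II sum was the larger in all 6 libraries.

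**Figure D2:**
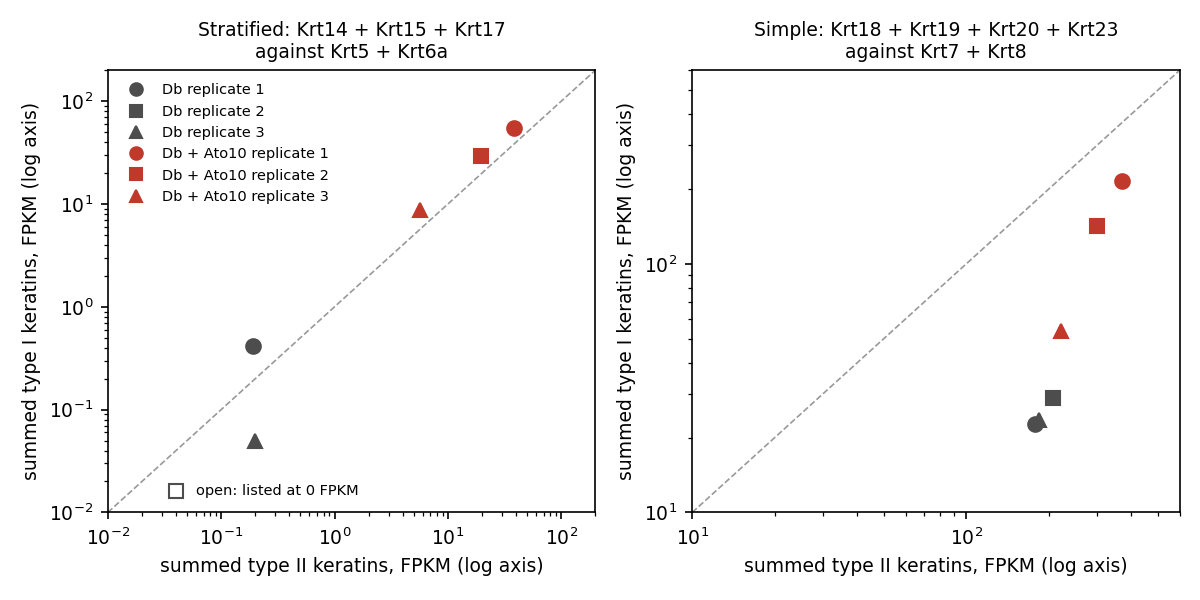
Summed type I against summed type II keratins in FPKM (log axes) in each library, for the stratified keratins of the group (left) and for simple keratins (right); the dashed line marks equal sums. The 3 Db + Ato10 libraries lie on a line parallel to it on the left, with ratios of 1.44 to 1.57, and all 6 libraries lie below it on the right.

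Trp63 (NCBI Gene 22061), the transcription factor of the group, differed less than Krt5, Krt14 and Krt15. It had 10, 12 and 7 counts in the Db libraries and 32, 52 and 11 counts in the Db + Ato10 libraries. The groups overlapped, since Db + Ato10 replicate 3 had 0.866 CPM and Db replicate 2 had 1.04 CPM. The means were 0.8 ± 0.237 and 2.16 ± 1.32 CPM (SD, n = 3 each), with a log2 fold change of 1.43. This was 1.44 when Db replicate 1 was left out and 0.92 when Db + Ato10 replicate 2 was. Trp63 was thus the gene of the group with the most Db counts, 29 of 51. It was also the only one of the 7 that was highest in Db + Ato10 replicate 2, while the other 6 were highest in Db + Ato10 replicate 1.

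The gene has an upstream start, which gives the TA forms of p63, and an internal start, which gives the ΔN forms known from basal cells. Of the 124 expected counts of Trp63 over all libraries, 122.71 were assigned to 3 transcripts that GENCODE places at the internal start, and 1.29 to a transcript without a match there. The transcript named differed between libraries. The reads of Db replicates 1 and 3 and 30.71 of the reads of Db + Ato10 replicate 1 were assigned to NM_001127262.1. Those of Db replicate 2 and Db + Ato10 replicate 3 went to NM_001127264.1, and the 52 of Db + Ato10 replicate 2 to NM_011641.2. In 5 of 6 libraries every read was given to 1 transcript. With 7 to 52 reads a library, the choice among transcripts that share exons is uncertain, and whether the forms differed between groups was not tested.

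Gabrp (NCBI Gene 216643) encodes the pi subunit of the GABA-A receptor, a chloride channel subunit found mostly outside the nervous system. It had 1, 1 and 0 counts in the Db libraries and 350, 174 and 58 counts in the Db + Ato10 libraries. The lowest Db + Ato10 library had 4.57 CPM. The highest Db library had 1 count, under its limit of detection of 0.26 CPM, so no ratio between these libraries is given. The ratio of pooled counts was 249, with an exact 95% counting interval of 68.6 to 2059, and 326 (58.3 to 12901) without Db replicate 1. With only Db + Ato10 replicate 1 left out the ratio was 154. A pair of transcripts carried the reads. NM_146017.3 had 214.92, 141.25 and 49.56 expected counts in Db + Ato10 replicates 1 to 3, which is 61.4%, 81.2% and 85.4% of the gene. XM_006514666.3 had the remaining 135.08, 32.75 and 8.44, and also both Db counts. Krt5, Krt15, Krt17 and Krt6a each had 1 transcript in the table. Krt14 had 97.3%, 100% and 90.6% of its expected counts on NM_016958.2 in the Db + Ato10 libraries.

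Taken by length, the order of levels was alike in the 3 Db + Ato10 libraries. Krt5 had 37.86, 19.74 and 5.58 FPKM and Krt15 had 31.64, 20.00 and 4.58 FPKM, so these 2 changed places in replicate 2 and did not differ beyond their spread. Krt14 followed with 21.79, 9.15 and 3.78 FPKM, and Gabrp came next in each library with 7.82, 3.83 and 1.42 FPKM. Krt17 (1.22, 0.39 and 0.44 FPKM) and Trp63 (0.50, 0.78 and 0.19 FPKM) changed places between libraries, and Krt6a was last with at most 0.07 FPKM. Krt5 had 1.74, 2.16 and 1.48 times the FPKM of Krt14, and 4.84, 5.15 and 3.93 times that of Gabrp. These levels are moderate: Krt5 was at rank 2500 of all genes by FPKM in Db + Ato10 replicate 1 and at rank 8228 in replicate 3. Together the 7 genes summed to 100.9, 53.89 and 16.03 FPKM in the Db + Ato10 libraries, and to 0.81, 0.3 and 0.38 FPKM in the Db libraries.

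The groups did not overlap, with Db + Ato10 higher, for 5 of the 7 genes. Among all 13679 tested genes, which do not include Krt17 and Krt6a, this was so for 12.0%, and for 11.3% in the other direction. Since the 7 genes were chosen on this comparison, nothing is read from their count. The 3 Db + Ato10 libraries differed widely. The highest was 6.32 times the lowest in CPM for Krt5, 5.57 times for Krt14, 6.45 times for Krt15, 5.05 times for Gabrp, 4.05 times for Trp63 and 3.05 times for Krt17. Db + Ato10 replicate 3, which lay beside the Db libraries on the first principal component, was the lowest for Krt5, Krt14, Krt15, Trp63 and Gabrp. Its gap to the highest Db library in log2 CPM (prior count of 2) was 4.64 for Krt14, 4.42 for Krt5, 4.31 for Gabrp, 3.42 for Krt15 and -0.23 for Trp63. The prior count lowers gaps against Db levels near 0, so the order of these gaps is not that of the ratios. In Db + Ato10 replicate 1 the gaps were 7.08, 7.07, 6.61, 6.08 and 0.92. High gaps were fixed by the choice of the genes and support nothing further.

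All keratin genes of the group lie in the 2 keratin clusters of the mouse genome, the type I cluster on chromosome 11 and the type II cluster on chromosome 15, so their neighbours were looked at in the order of the RefSeq table. Of 27 keratin genes listed on chromosome 11, 14 were analysed and 6 of these had at most 10 counts in every library. Of 27 on chromosome 15, 18 were analysed and 13 had at most 10. Krt19 lies between Krt15 and Krt14 and is described with the simple keratins below. Krt16, between Krt14 and Krt17, had 0 counts in every Db library and 5, 1 and 2 in the Db + Ato10 libraries. Krt13, next to Krt15, had 1 count in all. Krt6a and Krt6b are the neighbours of Krt5 on its one side, and Krt6b had 1 count in all. Keratins are similar in sequence, and how the deposited counting divided reads between similar genes such as Krt14, Krt16 and Krt17 or Krt5, Krt6a and Krt6b is not known here. The low values of Krt16, Krt17, Krt6a and Krt6b are uncertain for this reason.

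**Figure D3:**
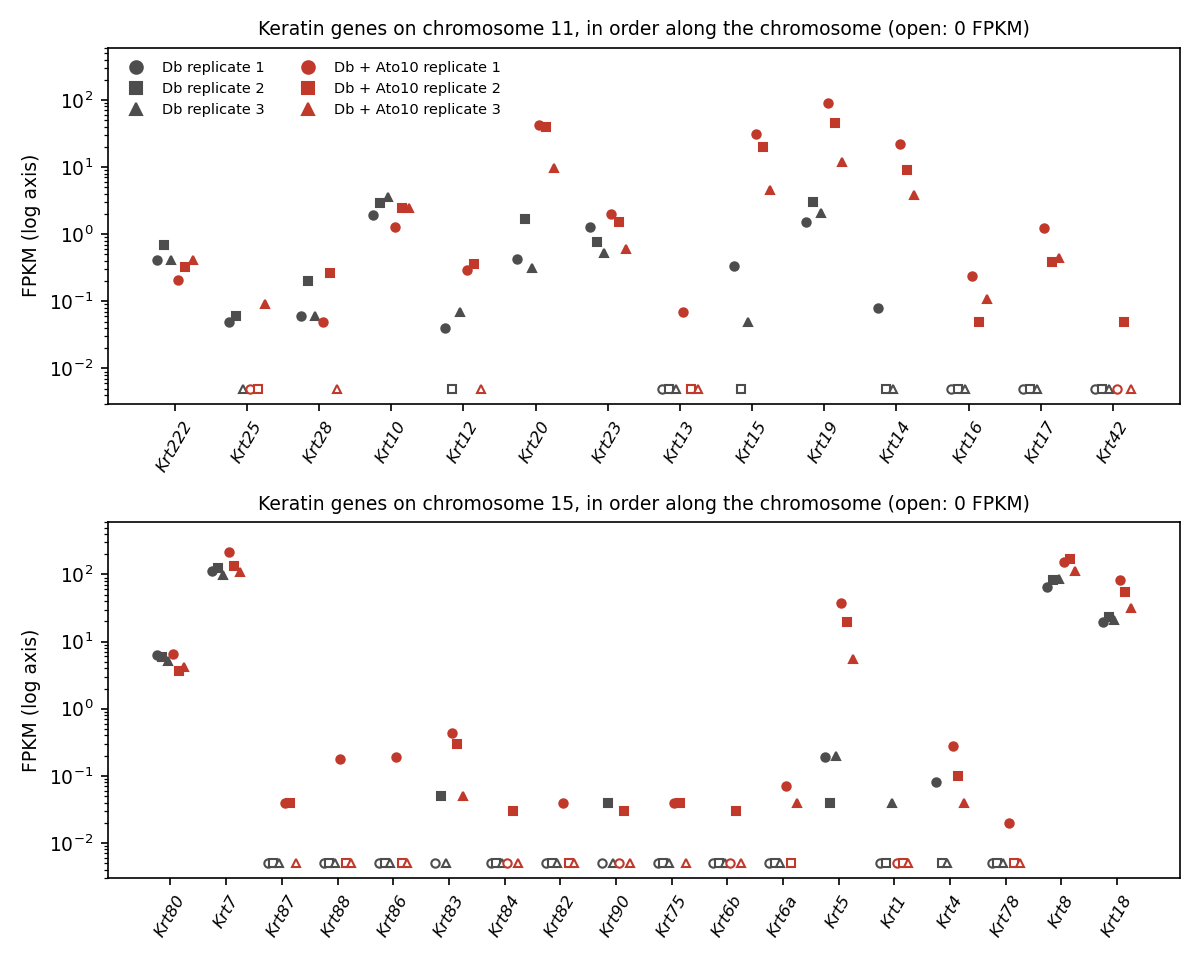
FPKM (log axis) in each library of the analysed keratin genes on chromosome 11 (top) and chromosome 15 (bottom), in their order along the chromosome and not to scale; open symbols mark 0 FPKM. For Krt20, Krt15, Krt19, Krt14, Krt16, Krt17, Krt5, Krt8 and Krt18 every Db + Ato10 library lies above every Db library. Several neighbours lie at or near 0.

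Promoter sequences are shown for Krt5 and Gabrp, the genes of the group with a usable window. RefSeq windows before the gene start were found for 3 of the 7 genes, and that of Krt14 belongs to its minor transcript and is left out. Each window below is the 250 bases before the start in GRCm38.p6, on the minus strand: chr15:101712906-101713155 for Krt5 and chr11:33578958-33579207 for Gabrp. Capitals mark a match to the 10-base repeat unit of the p53 family motif, searched by name on both strands after the windows had been seen. A full p53 family site is a pair of such units, and only the single unit was searched.
Krt5: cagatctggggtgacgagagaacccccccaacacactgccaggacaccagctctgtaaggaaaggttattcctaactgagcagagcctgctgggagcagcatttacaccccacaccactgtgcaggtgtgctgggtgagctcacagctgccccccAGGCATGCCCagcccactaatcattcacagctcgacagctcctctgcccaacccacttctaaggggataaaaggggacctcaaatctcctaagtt
Gabrp: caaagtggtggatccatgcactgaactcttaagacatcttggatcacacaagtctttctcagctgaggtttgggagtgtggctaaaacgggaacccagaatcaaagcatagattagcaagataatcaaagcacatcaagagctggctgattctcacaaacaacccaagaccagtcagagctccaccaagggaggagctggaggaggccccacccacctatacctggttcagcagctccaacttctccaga
Krt5 had 1 match, which began 95 bases before the start, and Gabrp had 0 in this window. Of 32851 such windows, 7.13% held a match, so a match is common. The AP-1 motif (TGACTCA or TGAGTCA, 4.46% of windows) and TATAAA (12.4% of windows) were in neither window. A match is a description of the sequence and shows no binding.

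Related genes were taken from 9 lists with 129 symbols, of which 112 genes were analysed and 68 had enough counts for edgeR's quasi-likelihood test, adjusted over all 13679 genes (Benjamini-Hochberg). With edgeR 0 of the 68 were called (adjusted p under 0.05 and fold change over 1.5), as were 0 of all tested genes (0.0%), where the smallest adjusted p was 0.239. At an unadjusted p under 0.05, 21 of the 68 (30.9%) were higher in the Db + Ato10 group, against 11.2% of all tested genes, and 4 (5.88%) were lower, against 5.71%. There were 13 in place of 21 when Db replicate 1 was left out, where the share of all genes was 5.16%, and 12 when Db + Ato10 replicate 2 was, where it was 8.39%. DESeq2, an alternative, called 13 of the 68 higher (19.1%, against 5.17% of all genes) and 1 lower (1.47%, against 1.29%). Without Db replicate 1 DESeq2 called 7 related genes in place of 14 and 1.44% of all genes. The 7 no longer called were Bcam, Egf, Elf3, Hbegf, Lamb3, Sfn and Tgm1. The groups did not overlap for 20 of the 68 with Db + Ato10 higher (29.4%, against 12.0% of all tested genes) and for 6 with Db + Ato10 lower (8.82%, against 11.3%). The median log2 fold change of the 68 was 0.33, against -0.006 over all tested genes. With edgeR and without Db + Ato10 replicate 3, 14 of the related genes were called, beside 8.18% of all genes tested in that fit, and 9 of the 14 were called by DESeq2 on all libraries. Of the 68 genes, Col17a1, Ly6d and Sprr2a1 had under 10 counts in every Db library and passed the count filter only through the Db + Ato10 group, so that they had to differ. These 3 are among the 21, the 13 and the 20 that did not overlap, and their p-values support nothing. They are also among the 7 that DESeq2 still called without Db replicate 1. The lists were chosen with earlier results of these data known, so their direction is not independent evidence.

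The hemidesmosome, which ties basal keratin filaments to the basement membrane, and its ligands there were represented by 11 genes, all tested. Of these, 6 were higher and 1 lower at an unadjusted p under 0.05 with edgeR, against 11.2% and 5.71% of all tested genes. Col17a1 and Itgb4 are also in the list of basal cell genes. The lower one was Dst, a plaque protein that binds keratin filaments, with 3690, 3373 and 4057 against 2689, 2742 and 3095 counts (log2 fold change -0.59 ± 0.18 SE, edgeR adjusted p = 0.239). Col17a1, a transmembrane collagen of the hemidesmosome, had 1, 2 and 1 counts in the Db libraries and 92, 93 and 11 in the Db + Ato10 libraries (edgeR log2 fold change 5.21 ± 0.96 SE, adjusted p = 0.239; DESeq2 adjusted p = 0.000211). It is among the 6, but passed the count filter only through the Db + Ato10 group. Col17a1 thus had to differ, and its p-values support nothing. Lamb3, a laminin beta chain of the basement membrane, had 15, 16 and 23 against 310, 199 and 26 counts (3.01 ± 0.80, edgeR adjusted p = 0.239; DESeq2 0.00402), and the log2 fold change was 2.4 without Db + Ato10 replicate 1. For Itgb4, the integrin of the hemidesmosome, counts were 89, 108 and 95 against 525, 342 and 108, and the groups overlapped in CPM. Bcam, a laminin receptor and the most abundant gene of the list, had 83.5 ± 12.4 and 160 ± 44.0 FPKM (SD, n = 3 each; DESeq2 adjusted p = 0.0114).

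Of 14 tested genes of basal cell surfaces and p63 targets, 6 were higher and 1 was lower at an unadjusted p under 0.05 with edgeR. The shares over all tested genes were 11.2% and 5.71%, and the median log2 fold change of the 14 was 1.29. With limma the median was 0.62 to 0.98. Col17a1 and Ly6d, which passed the count filter only through the Db + Ato10 group, are among the 6. Both had to differ, and their p-values support nothing. Leaving out Db + Ato10 replicate 1 gave a median of 0.56, and leaving out replicate 2 gave 0.57, each over the 11 genes that then had enough counts. Ly6d, a surface protein of basal squamous cells, had 3 counts in each Db library and 458, 250 and 30 counts in the Db + Ato10 libraries (6.01 ± 1.04 SE, edgeR adjusted p = 0.239; DESeq2 6.8e-08). Cd44, a hyaluronan receptor that leukocytes also carry, had 18, 56 and 16 against 3587, 781 and 81 counts (5.29 ± 1.37; DESeq2 adjusted p = 8.48e-05). Sfn, encoding 14-3-3 sigma, had 94, 132 and 84 against 1254, 413 and 186 counts (2.28 ± 0.64; DESeq2 adjusted p = 0.009). Leaving out the first Db + Ato10 library lowered the log2 fold change of Cd44 to 3.57 and that of Sfn to 1.33, and leaving out Db replicate 2 gave 6.17 for Cd44. Aqp3, a water channel of basal cells and the most abundant of the list, is also made by the collecting duct, and its log2 fold change was -0.89 ± 0.32 (edgeR adjusted p = 0.254). All 4 genes of this list with a DESeq2 call (Sfn, Ly6d, Cd44 and Col17a1) were lowest among the Db + Ato10 libraries in replicate 3.

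Among 14 tested regulators of stratified epithelium, which include relatives and partners of p63, 3 were higher at an unadjusted p under 0.05 with edgeR. The share over all tested genes was 11.2%, and the median log2 fold change of the 14 was 0.36. Elf3, an epithelial ETS factor, had 344, 288 and 303 counts in the Db libraries and 1526, 1013 and 507 in the Db + Ato10 libraries (1.44 ± 0.32; DESeq2 adjusted p = 0.00456). Trp53, the gene of p53, had 334, 295 and 334 against 748, 710 and 481 counts (0.77 ± 0.15; DESeq2 adjusted p = 0.00212). Klf4, a factor of squamous differentiation, had 225, 166 and 177 against 761, 606 and 180 counts (1.18 ± 0.44, edgeR adjusted p = 0.268). The relative Trp73 had 6 counts in the Db group and 7 in the Db + Ato10 group, a ratio of 0.998 (exact 95% interval 0.287 to 3.59).

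Cell contacts and differentiation gave a mixed picture. Of 9 tested genes of the desmosome and its scaffold, 2 (Pkp3 and Ppl) were higher at an unadjusted p under 0.05 with edgeR. The share over all tested genes was 11.2%, and the median of the 9 was 0.10. The most abundant, Jup, had 54.8 ± 4.24 and 58.5 ± 2.18 FPKM (SD, n = 3 each). Pkp1, the plakophilin of stratified epithelia, was at 0 in all Db libraries and had 22, 11 and 3 counts in the Db + Ato10 libraries. Of 6 tested genes of squamous differentiation, 3 were higher at an unadjusted p under 0.05 with edgeR, against the same 11.2%. The median of the 6 was 0.99. Sprr1a, a precursor of the cornified envelope and the most abundant of the list, had 18, 28 and 17 against 222, 311 and 174 counts (3.23 ± 0.33; edgeR adjusted p = 0.239; DESeq2 6.02e-15). Tgm1, which cross-links the envelope, had 108, 186 and 269 against 446, 493 and 631 counts (1.27 ± 0.37; DESeq2 adjusted p = 0.0344). Within the Db + Ato10 group Sprr1a varied little between replicates 1 and 3, and Tgm1 was highest in replicate 3.

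Other keratins of stratified epithelia were mostly low. Of the 10 other stratified keratins analysed, 8 had at most 10 counts in every library, and 0 of the 2 tested (Krt10 and Krt80) were called or at an unadjusted p under 0.05 with edgeR or called with DESeq2; their median was -0.35. Krt10, a keratin of the upper epidermis, had 37 to 89 counts in every library and Krt80 had 145 to 274. Krt1 and Krt13, the keratins of differentiated epidermis and mucosa, each had 1 count over all libraries. Of the envelope and differentiation genes below the count filter, Lor and Flg had 4 and 8 counts in the Db group and 6 and 2 in the Db + Ato10 group. Ivl, an envelope precursor, had 0 Db counts and 6, 8 and 3 in the Db + Ato10 libraries, at least 4.75-fold higher. Dmkn had 1 count in each Db library and 44, 3 and 1 in the Db + Ato10 libraries, and Casp14 had 0, 3 and 1 against 8, 10 and 3, so both overlapped. Dsg3, a desmoglein of basal and lower layers, had 0 Db counts and 3 in the Db + Ato10 group. Hair and inner root sheath keratins, 6 analysed and 0 tested, each had at most 10 counts in every library. These low-count genes were picked after their values had been seen.

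Ligands of the EGF receptor, which drive growth of basal cells, had log2 fold changes of either sign. Egf, which the distal tubule makes and which was the most abundant of the list, had 549 ± 56.1 FPKM in the Db group and 140 ± 112 FPKM in the Db + Ato10 group (SD, n = 3 each; log2 fold change -2.06 ± 0.66 SE, edgeR adjusted p = 0.239, DESeq2 0.0193), and the log2 fold change was -3.02 without Db + Ato10 replicate 3. Hbegf had 148, 193 and 123 against 734, 359 and 320 counts (1.35 ± 0.34, DESeq2 adjusted p = 0.0138), while Btc passed no call (-1.28 ± 0.44, edgeR adjusted p = 0.25) and its groups overlapped. Areg, below the count filter, had 1, 6 and 0 against 132, 79 and 5 counts, so the groups overlapped. The 4 tested ligands had a median of -0.55. Of 14 other GABA-A receptor subunits analysed, 4 had enough counts for the test, with a median log2 fold change of -0.25, and 0 of these were called by edgeR or DESeq2 or at an unadjusted p under 0.05. The most abundant, Gabra3, had 1.49 ± 0.694 and 1.38 ± 0.274 FPKM, and their summed FPKM was 4.10, 5.49 and 4.06 in the Db libraries and 3.54, 2.59 and 4.04 in the Db + Ato10 libraries.

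Urothelium, which lines the renal pelvis, holds basal cells with keratin 5 below its umbrella cells. Of 13 genes of umbrella and intermediate cells, 8 were tested, with a median of -0.22. Of these 8, 2 were higher at an unadjusted p under 0.05 with edgeR (11.2% of all tested genes) and called by DESeq2 (5.17%). These were Krt20, the keratin of umbrella cells and the most abundant of the list, and Sprr2a1, one of a family of near-identical genes among which reads may have been divided. Sprr2a1 passed the count filter only through the Db + Ato10 group, so it had to differ and its call supports nothing. The list's summed level was 29.2, 31.2 and 32.8 FPKM in the Db libraries and 99.5, 78.7 and 38.6 FPKM in the Db + Ato10 libraries. Without Krt20 it was 28.8, 29.6 and 32.5 against 56.5, 38.9 and 29.0 FPKM. Uroplakins, which define umbrella cells, were low. Upk3a had 5, 1 and 8 counts against 93, 30 and 3, and Upk2 had 7, 1 and 1 against 19, 3 and 2. Upk1b had 9, 1 and 8 against 45, 26 and 9 counts, while Upk1a had 34, 23 and 22 against 33, 13 and 13. In Db + Ato10 replicate 3 these 4 uroplakins did not exceed the highest Db library in counts, while Krt20 (228 against at most 34), Sprr2a1 (76 against at most 4) and Foxa1 did. Foxa1, a urothelial factor below the count filter, had 1, 0 and 2 against 73, 41 and 7 counts, with most of them in Db + Ato10 replicate 1. Of the other tested genes, Snx31 (-0.87), Shh (-0.79), Upk1a (-0.66), Gata3 (-0.37) and Fgfr3 (-0.06) had log2 fold changes below 0. Psca was at 0.89. In Db + Ato10 replicate 3 Psca, Snx31, Gata3 and Shh did not exceed the highest Db library in counts, while Fgfr3 did. Whether the amount of urothelium in the tissue has a part in the levels of the 7 genes was not tested.

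Of the keratins of simple epithelium all 6 listed were tested. With edgeR 0 were called and 4 (Krt8, Krt18, Krt19 and Krt20) were higher at an unadjusted p under 0.05. The share over all tested genes was 11.2%. The same 4 were called by DESeq2, against 5.17% of all genes, and the median log2 fold change of the 6 was 1.11. Krt19 had 24, 38 and 31 counts in the Db libraries and 1419, 722 and 170 in the Db + Ato10 libraries (4.34 ± 0.74 SE, edgeR adjusted p = 0.239; DESeq2 3.67e-08), and Krt20 had 10, 34 and 7 against 1127, 1046 and 228 (5.25 ± 0.83, edgeR adjusted p = 0.239; DESeq2 1.15e-09). The log2 fold change of Krt19 was 3.61 without Db + Ato10 replicate 1, and that of Krt20 was 6.3 without Db replicate 2. Krt18 (1.36 ± 0.31) and its partner Krt8 (0.86 ± 0.19) had smaller differences from a higher level. Krt7, the most abundant, had 111 ± 13.7 and 153 ± 58.4 FPKM (SD, n = 3 each), and its groups overlapped, as did those of Krt23. The summed level of the list was 200, 236 and 207 FPKM in the Db libraries and 587, 442 and 274 FPKM in the Db + Ato10 libraries.

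Markers of other tissues next to the kidney were measured for the same libraries. Smooth muscle genes (8 analysed, Tagln the most abundant) summed to 75.0, 66.2 and 65.1 FPKM in the Db libraries and 188, 93.6 and 69.4 in the Db + Ato10 libraries. Of the 7 tested, 1 was higher at an unadjusted p under 0.05 with edgeR, near the share of 11.2% over all tested genes. Mesothelial genes (6 analysed, Gpm6a the most abundant) summed to 50.5, 24.6 and 57.4 against 20.4, 30.9 and 38.3 FPKM; of these Msln alone was called by DESeq2, with 4, 2 and 1 against 107, 103 and 15 counts. Since Msln passed the count filter only through the Db + Ato10 group, it had to differ and its call supports nothing. The median of the mesothelial list was 0.12, but between -0.11 and -0.01 with limma-voom and limma on TPM. Adipocyte genes (5 analysed, Cidec the most abundant and the only one tested) summed to at most 1.04 FPKM, and the defining marker Adipoq had 1 count in the Db group and 2 in the Db + Ato10 group. The pancreatic list summed to 31.5 to 88.4 FPKM, nearly all from Cela1, and its other 3 genes to at most 0.24 FPKM. Adrenal cortex genes (4 analysed, Hsd3b1 the most abundant) summed to 2.36 to 3.57 FPKM, with a median of 0.05 that was -0.03 and -0.04 with limma on TPM. The part of these tissues in the levels of the 7 genes was not tested.

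Markers of the kidney itself were present in every library, as the label says. Proximal tubule genes (8 analysed, Kap the most abundant) summed to 10927, 5882 and 7248 FPKM in the Db libraries and 2455, 3441 and 6519 FPKM in the Db + Ato10 libraries, with 0 of 8 called by edgeR or DESeq2 or at an unadjusted p under 0.05. Thick ascending limb genes (5 analysed, Umod the most abundant) summed to 2184, 2659 and 2482 against 1754, 810 and 1940 FPKM, and 3 were called lower by DESeq2. Distal convoluted tubule genes (4 analysed, Calb1 the most abundant) summed to 1216, 1381 and 923 against 702, 307 and 575 FPKM, and 1 was called lower by DESeq2. For the collecting duct (7 analysed, Aqp2 the most abundant) the sums were 578, 477 and 737 against 472, 269 and 452 FPKM, and 4 genes were called lower by DESeq2. Podocyte genes (5 analysed, Podxl the most abundant) summed to 128, 87.7 and 84.0 against 146, 46.1 and 84.8 FPKM, with 0 called by edgeR or DESeq2 or at an unadjusted p under 0.05. With edgeR 0 genes of these lists were called, while 3, 3 and 6 of the thick ascending limb, distal convoluted tubule and collecting duct lists were lower at an unadjusted p under 0.05. Over all tested genes 5.71% were lower at this p with edgeR, and DESeq2 called 1.29% lower.

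Leukocyte and injury genes were measured in the same libraries. Leukocyte genes (8 analysed, S100a9 the most abundant) summed to 15.7, 32.9 and 15.6 FPKM in the Db libraries and 28928, 299 and 35.0 FPKM in the Db + Ato10 libraries. Of the 6 tested, 6 were higher at an unadjusted p under 0.05 with edgeR, against 11.2% of all tested genes. With edgeR 0 of them were called. DESeq2 called 4, against 5.17% of all genes higher, and gave no adjusted p for S100a8 and S100a9. The median log2 fold change of the 6 was 4.94, which was 2.86 without Db + Ato10 replicate 1 and 3.05 to 3.83 with limma, and the groups overlapped for Ptprc and Adgre1. Tubular injury genes (7 analysed, Spp1 the most abundant) summed to 2425, 3068 and 1642 against 15345, 24824 and 7742 FPKM. Of these, 6 of 7 were higher at an unadjusted p under 0.05 with edgeR, 0 were called by edgeR and 5 by DESeq2. The shares over all genes are those given for the leukocyte list. The median of the 7 injury genes was 2.99, and 2.25 to 2.67 with limma. Prom1 had a log2 fold change of 0.0. Db + Ato10 replicate 1 had 6.32 times the CPM of replicate 3 for Krt5, 5.05 times for Gabrp, 2.43 times for Trp63, 12.8 times for Ly6d and 37.0 times for Cd44. The same ratio was 13.7 for Ptprc, the pan-leukocyte gene, and 1540 for S100a8, a neutrophil gene. Among the injury genes it was 16.5 for Lcn2, a lipocalin, 1.31 for Havcr1, the kidney injury molecule, and 0.976 for Spp1, and replicate 2 was the highest for Havcr1 and Spp1. For Krt5, Krt14, Krt15, Krt17, Trp63 and Gabrp this ratio was 2.43 to 6.45. The injury gene Lcn2 and the leukocyte genes Ptprc, Cd68, Itgam, S100a9 and S100a8 lay above these values, at 13.7 to 1540. Havcr1 and Spp1 lay below them. The ratio was not taken for the other genes of the leukocyte and injury lists. The genes compared were picked after their values had been seen, and a difference in spread was not tested. The part of leukocytes and of injury in the levels of the 7 genes was not tested.

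**Figure D4:**
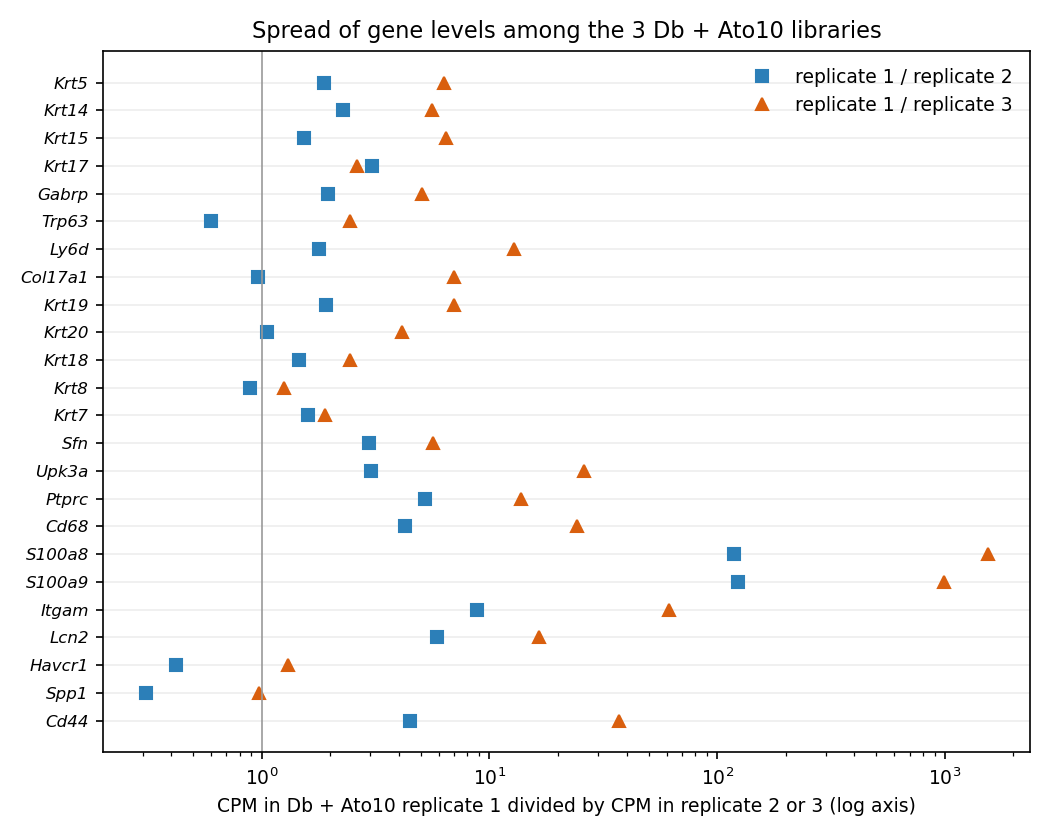
CPM in Db + Ato10 replicate 1 divided by that in replicate 2 (squares) or replicate 3 (triangles), on a log axis, for 24 genes picked after their values had been seen; the vertical line marks equal levels. Krt5, Krt14, Krt15 and Gabrp lie between 5.05 and 6.45 for replicate 3, Cd44 lies at 37.0, and S100a8 reaches 1540.

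The genes most like the basal group were found by the Pearson correlation, over the 6 libraries, of their log2 CPM with the mean z-score of the 5 group members that had enough counts. The libraries share a group and a depth, so r mostly reflects the difference between groups and is a description. Of 13674 other genes 154 reached r of at least 0.95. The nearest 10 were Uhrf1 and Trp53 (0.994 each), Msln (0.992), Cks1b, Plekhm1 and Sat1 (0.991 each), Sprr2f (0.989), and Ly6d, Cbr2 and H1fx (0.988 each). Some of them were near 0 in the Db group, as the basal genes other than Trp63 were: Sprr2f had 0, 1 and 0 against 411, 173 and 33 counts. Others were well expressed in both groups and differed little, such as Plekhm1 with 536, 451 and 491 against 835, 824 and 608 counts (log2 fold change 0.39 ± 0.12). Uhrf1, a factor that maintains DNA methylation in dividing cells, had 22 counts in each Db library and 147, 153 and 59 in the Db + Ato10 libraries, and Cks1b, a cell cycle gene, had 34, 28 and 26 against 124, 120 and 52. The edgeR adjusted p was 0.239 for each of the 10.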

How the data were processed

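Kidney RNA of 3 Db and 3 Db + Ato10 mice was sequenced on a BGISEQ-500, and groups and replicate numbers follow the sample titles and characteristics. For genes and transcripts alike, the authors deposited expected counts (estimated reads, not normalized), and also FPKM (deposited, scaled to length and library size) and TPM (deposited, scaled to length and then to a common total). Columns of group averages were not used. The submitters' processing notes name HISAT, Bowtie2 2.2.5 and mm9, without their roles.

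Expected counts (91.3% exactly whole as deposited, with no tolerance) were rounded and fitted with edgeR 4.0.16 in R 4.3.3 (TMM, quasi-likelihood F test, defaults); a gene was tested if 3 or more libraries had 10 or more counts, and 2 was the prior count for log2 CPM. Standard errors are |log2 fold change|/sqrt(F). A gene was called at a Benjamini-Hochberg adjusted p under 0.05 and a fold change over 1.5, the study's criteria. The fit was tested on simulated data. Ratios of low counts carry exact 95% binomial intervals (scipy 1.17.1). No 2 libraries had identical counts (0 pairs), and p-values measure only the spread between these samples. An exact permutation test of 3 against 3 cannot go below 0.1.

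The members and the gene lists were chosen with earlier results of these data known. Named were every member; in each list the 3 tested genes with the largest absolute log2 fold change, the most abundant gene and every gene called by edgeR or DESeq2; the 10 genes most like the members; and Y-linked genes. From these, examples are printed; low-count and other genes were picked after their values were seen. Symbols were matched through RefSeq (GRCm38.p6), used for names and order, and 251 of 252 list entries had a gene; promoter sequences are RefSeq's in that build, and Trp63 starts follow GENCODE M21. Scripts ran in Python 3.11.15 with pandas 2.3.3 and drew figures with matplotlib 3.10.9.

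Other settings tried were DESeq2 1.42.0, limma 3.58.1 (voom, log2(FPKM + 1), log2(TPM + 1) and log2(TPM + 0.1)), upper-quartile scaling, a filter of 1 count in total, a filter of 10 counts in each of the libraries, a block for the replicate number, and leaving out 1 library at a time. Leaving out libraries with DESeq2, and for the list medians, was chosen after seeing the data. Symbols of the lists without a value were not analysed here.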

Additional observations from a re-analysis of the deposited data

How the results depend on the processing

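Of 58 alternative log2 fold changes of Krt5, Krt14, Krt15, Trp63 and Gabrp, 44 lay within 1 SD of the value given. Their sign was fixed by the choice of the genes, and Krt5, Krt14, Krt15 and Gabrp passed the count filter only through the Db + Ato10 group, so they have no fit without one of its libraries. The median over the 7 genes, with Krt17 and Krt6a ranked lowest, was 6.98. It was 2.2, 2.7 and 5.45 with limma on log2(FPKM + 1), log2(TPM + 1) and log2(TPM + 0.1), where the pseudocount shrinks the change of low genes, and 6.1 with the low-count genes at the low end of their limits. It ranged from 6.45 to 7.35 with a Db library left out, and with DESeq2 from 6.5 to 7.41; without a Db + Ato10 library, or with at least 10 counts in every library, fewer than 4 of the genes were tested and there is no value.

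With edgeR 0 genes and 0 related genes were called, and 1533 genes (66.2% of those at an unadjusted p under 0.05) were higher. DESeq2 called 884 genes and 14 related genes, and limma on log2(TPM + 0.1) called 1 gene. At an unadjusted p under 0.05, 905 genes were higher with limma-voom, 912 with limma on log2(TPM + 1) and 972 on log2(TPM + 0.1), which are 49.7%, 41.9% and 43.7% of those counted in either direction; the cause was not tested. With each library left out, edgeR called 0 to 1106 genes and 0 to 14 related genes, the upper values without Db + Ato10 replicate 3. Genes at an unadjusted p under 0.05 and higher numbered 701 (without Db replicate 1) to 2269, with 710 without Db replicate 3, and related genes 12 (without Db + Ato10 replicate 2) to 26. DESeq2 with a library left out called 195 (without Db replicate 1) to 2614 genes (without Db + Ato10 replicate 3) and 6 to 28 related genes. Non-overlapping genes with Db + Ato10 higher numbered 1640, between 1120 and 1982 with other scalings and filters and 1886 to 3414 with a library left out (2732 without Db replicate 2, 3414 without Db + Ato10 replicate 3); limma-voom and the block give no other value of this count.

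The replicate number shared by a Db and a Db + Ato10 library did not pair them: their deviations from the group means correlated at -0.151, 0.061 and 0.208. With the replicate block, 0 genes and 0 related genes were called, 1121 genes and 20 related genes were higher at an unadjusted p under 0.05, and the median was 6.9; it changed no call.

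With 3 libraries per group, and Db levels of 0 to 12 counts, fold changes are known only within wide limits. The list medians kept their sign under every scaling tried but for the mesothelial and adrenal lists. With a library left out these 2 changed sign too, the podocyte median went from -0.15 to 0.24 (without Db replicate 1 or Db + Ato10 replicate 2), and the pancreatic value, from Cela1 alone, from -0.3 to 0.04 (without Db + Ato10 replicate 1). Levels near 0 in the Db group are not shown to be absent, since 3 counts correspond to 0.198 to 0.26 CPM. Protein and location in the tissue were not analysed here.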

Other observations

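Genes that went from near 0 to a clear level were counted by a rule chosen after the data were seen: at most 3 counts over the Db group and at least 30 counts in each Db + Ato10 library. Of the 17684 genes 5 met it, and 0 met the reverse. Krt14 and Gabrp were among these 5, with Reg3g, Sprr2f and Cxcl2. Reg3g, an antimicrobial lectin of epithelia, had 0 counts in every Db library and 685, 546 and 135 in the Db + Ato10 libraries, at least 376-fold higher. Sprr2f, a small proline-rich protein gene, had 0, 1 and 0 against 411, 173 and 33 counts. Cxcl2, a neutrophil chemokine, had 0, 1 and 2 against 8830, 269 and 33 counts, with nearly all of its counts in Db + Ato10 replicate 1. Reg3g was thus the gene of these 5 with the highest count in Db + Ato10 replicate 3.

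The ratio of the 2 Gabrp transcripts differed between Db + Ato10 libraries. NM_146017.3 held 61.4% of the expected counts in replicate 1, 81.2% in replicate 2 and 85.4% in replicate 3, so the predicted transcript XM_006514666.3 held 38.6%, 18.8% and 14.6%. This was not tested.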
